A study of Danio rerio with 8 samples.

Results

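The genes that carry cells through DNA replication and mitosis were described in GFP-positive cells sorted from zebrafish larvae 96 hours post fertilization (hpf). The members were the rows of the count table that bear one of 40 gene names. These names matched 42 of the 32520 genes in the table, because rrm2 and ube2c each name 2 genes. By known role they were split into 19 replication genes and 23 mitosis genes.

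All larvae were of the Tg(fli1:EGFP)y1 line, with a genotype given as wt, and were injected as one-cell embryos. A standard control morpholino was given to the larvae behind the 4 control libraries, and those behind the other 4 were given an equimolar amount of a splice-junction morpholino against hpse2. hpse2 encodes heparanase 2 (Hpa2), a binder of heparan sulfate, and the libraries labelled Hpa2 loss-of-function are called LOF-labelled here. Each group was made up of biological replicate 1 (libraries 1_1 and 1_2) and biological replicate 2 (libraries 2_1 and 2_2), each library being a sample, and 60 to 80 larvae were pooled for a preparation. Whether both libraries of a biological replicate came from the same larvae is not given, so p-values may in part measure technical spread. In a limma fit with biological replicate as a random effect, the correlation within biological replicates was 0.504. The main SEs and intervals treat the 4 libraries of a group as independent and may be too narrow. hpse2 counts were 232, 98, 259 and 385 in controls and 659, 801, 358 and 364 in the LOF-labelled samples. Per 1000000 scaled counts, hpse2 was at 20.6 to 33.1 in controls and at 47.4 to 83.3 in the LOF-labelled samples. It was thus higher in every LOF-labelled sample, an order found in 2.03% of all genes (log2 fold change 1.20, edgeR adjusted p = 0.130). The gene count therefore gave no check of the loss of function.

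The fli1a sequence that drives GFP in this line is active in endothelium and also in cranial neural crest derivatives, so the sorted cells were a mixture. The cells are labelled endothelium. Of 20 endothelial identity genes, 19 were detected well enough to test, and they summed to 899 to 1249 counts per 1000000 (CPM) across the 8 libraries. The 16 genes of neural crest and cartilage reached 15865 to 30527 CPM and 12 fibroblast genes 33934 to 47518 CPM. The lists differ in the number and kind of their genes, so these sums do not give the shares of the cell types. Total counts ran from 5048839 to 11344918 per library. In such bulk samples, fewer dividing cells and less transcript per dividing cell cannot be told apart.

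A cell that commits to division passes from G1, under cyclin D and cyclin E with their kinases, into S phase, where licensed origins fire and the DNA is copied. In G2 and mitosis, cyclin B with CDK1 and the Aurora kinases build the spindle. The anaphase-promoting complex then lets the sister chromatids part and also destroys cyclin B. Transcripts of the replication genes are typically made from late G1 under E2F factors, and those of the mitosis genes peak later, in G2 and mitosis, so the classes report on different parts of the cycle. In a larva of this age, growing cartilage, vessels and blood all contain dividing cells.

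The libraries also differed in a way that the groups do not explain. The first principal component over all genes held 40.3% of the variance and split them into 4 and 4. Set 1 is made of controls 1_1 and 1_2 and of LOF-labelled 2_1 and 2_2, and set 2 of the remaining libraries. As both groups occur in both sets, differences between groups are also shown inside each set. Each set holds both libraries of a single biological replicate from each group. The split thus follows the difference between biological replicates within each group, and a difference inside a set compares single biological replicates. The sets were defined from these libraries and are not treatment groups of the study.

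No cell cycle member was called in the comparison of the groups. The test was edgeR's quasi-likelihood test over 15559 genes with Benjamini-Hochberg adjustment, with calls made at an adjusted p under 0.05. It called 0.09% of all genes tested. Of the 42 member genes, 40 had enough counts to be tested, 19 for replication and 21 for mitosis. The DESeq2 test called none of them either. An unadjusted p under 0.05 was reached by 1 replication member and 2 mitosis members, against 6.29% of all genes.

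**Figure D1:**
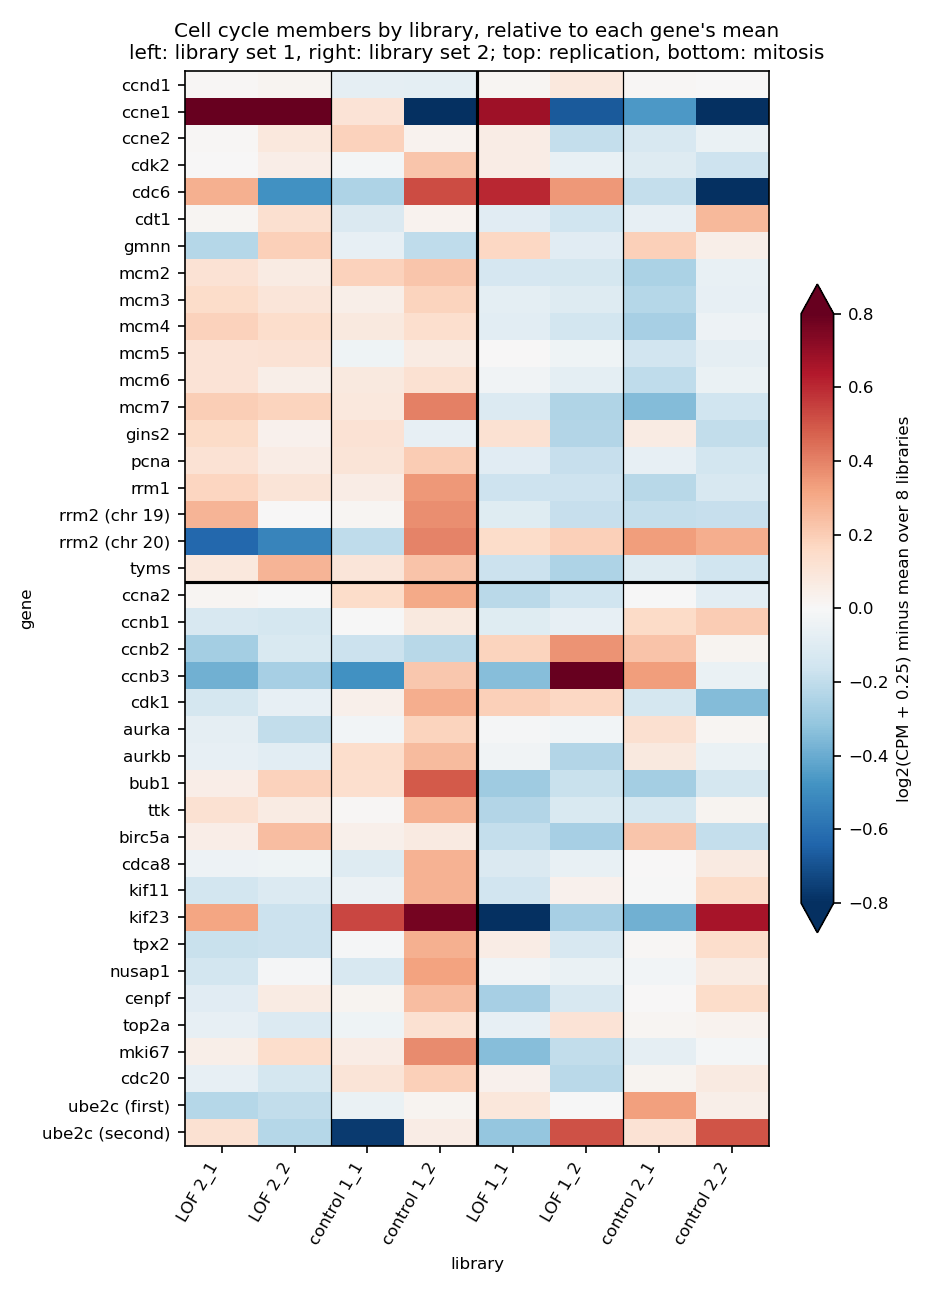
Level of each tested member in each library, as log2(CPM + 0.25) minus the gene's mean over the 8 libraries (colour scale, log2 units, with values beyond 0.8 drawn at the end colour). Columns are libraries, with set 1 to the left of the heavy vertical line and set 2 to the right. Rows are genes, with the 19 replication genes above the horizontal line and the 21 mitosis genes below. Most replication genes are red on the left and blue on the right, and control 1_2 is red for most mitosis genes.

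Replication genes as a class leaned neither way between the groups. Of the 19 tested, 10 had a log2 fold change above 0 and 9 below 0, with a median of 0.015, beside 0.0017 over all genes tested. Of these 19, 16 lay within 0.1 of 0, and the smallest adjusted p of edgeR was 0.654. Inside the groups the mean log2 CPM of the class had an SD of 0.114, so a small shift could go unseen. Fold changes throughout are LOF-labelled minus control, on the log2 scale.

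Among the G1 cyclins and the S-phase kinase, ccnd1 encodes cyclin D1, which drives cells through G1 with CDK4 and CDK6. Its level was 387, 384, 408 and 407 CPM in controls, given here and below in the order 1_1, 1_2, 2_1 and 2_2, and 411, 431, 409 and 413 CPM in the LOF-labelled samples. Every LOF-labelled sample exceeded every control, by a margin of about 1 CPM between the nearest pair. Such an ordering held for 1 of 19 replication members and for 2.03% of all genes. The log2 fold change was 0.068 (SE 0.081, edgeR adjusted p = 0.953), so the difference was small against its error.

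Cyclin E1 (ccne1), which activates CDK2 at the entry into S phase, had the largest fold change of the class and the smallest p. It was at 1.79, 0.630, 1.13 and 0.775 CPM in controls and at 2.78, 0.936, 4.90 and 3.23 CPM in the LOF-labelled samples. LOF-labelled 1_2 lay inside the range of the controls and the other 3 lay above it. Its log2 fold change was 1.40 (SE 0.51, edgeR adjusted p = 0.654), and it was 1.66 in set 1 and 0.68 in set 2. Only 128 counts over 8 libraries lie behind these values, with 3 to 37 per library. Its sister cyclin ccne2 was far more abundant, at 45.5 ± 4.28 CPM in controls and 44.9 ± 3.74 CPM in the LOF-labelled samples (mean ± SD, n = 4). Their common kinase partner cdk2 stood at 73.7 ± 8.94 and 74.8 ± 2.95 CPM. Both of these overlapped between the groups, with log2 fold changes of -0.018 and 0.025.

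Origin licensing loads the MCM2 to MCM7 helicase onto DNA with the help of Cdc6 and Cdt1. The 6 helicase subunits were abundant and close to each other, at 151 to 223 CPM per kilobase of transcript. mcm5, the highest of them per length, was at 569, 609, 525 and 555 CPM in controls and at 584, 569.6, 628 and 631 CPM in the LOF-labelled samples. The groups overlapped, with a log2 fold change of 0.095 (SE 0.091, edgeR adjusted p = 0.922).

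mcm7 was at 476, 595, 354 and 403 CPM in controls and at 417, 380.2, 515 and 509 CPM in the LOF-labelled samples. The groups interleaved, with a log2 fold change of -0.0050 (SE 0.17, edgeR adjusted p = 0.998). The 4 libraries of set 1 were the 4 highest. The log2 fold changes of all 6 subunits lay between -0.056 and 0.095, and the widest of their 95% intervals, that of mcm7, ran from -0.37 to 0.36. The interval of mcm5 ran from -0.11 to 0.30.

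The loader cdc6 varied more than the helicase it loads. It was at 15.8, 27.1, 16.4 and 10.4 CPM in controls and at 28.7, 23.9, 22.9 and 13.3 CPM in the LOF-labelled samples. Both groups spanned a range of about the same width. The log2 fold change of 0.38 (SE 0.30, edgeR adjusted p = 0.901) had opposite signs inside the sets, -0.24 in set 1 and 0.99 in set 2. It was 0.65 without control 1_2, 0.18 without control 2_2 and 0.23 without LOF-labelled 1_1. The second loader cdt1, its inhibitor geminin (gmnn) and gins2, a subunit of the GINS complex that activates the helicase, had log2 fold changes of -0.056, 0.015 and 0.042. gmnn overlaps other genes on both strands and cdt1 overlaps aprt on the opposite strand, and without a stated use of strand their counts are uncertain.

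Of the genes for the replication clamp and the supply of nucleotides, pcna, the sliding clamp that holds polymerases on DNA, had the highest level per length of all members, 705 CPM per kilobase. pcna lies on the reverse strand of chromosome 10, 40821804 to 40826657 (GRCz11). It was at 1089, 1171, 972 and 918 CPM in controls and at 954, 892, 1099.5 and 1060.0 CPM in the LOF-labelled samples. The groups interleaved and all 4 set 1 libraries were above all 4 of set 2. Its log2 fold change was -0.051 (SE 0.11, edgeR adjusted p = 0.976).

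Ribonucleotide reductase makes deoxyribonucleotides from a large subunit, rrm1, and a small subunit, rrm2. rrm1 stood at 423 ± 76.3 CPM in controls and 413 ± 50.3 CPM in the LOF-labelled samples. The rrm2 gene on chromosome 19 stood at 227 ± 44.1 and 225 ± 32.1 CPM. The rrm2 gene on chromosome 20, 29492469 to 29499426, was at 24.2, 36.8, 35.2 and 34.1 CPM in controls and at 30.9, 31.8, 17.9 and 19.2 CPM in the LOF-labelled samples. Only LOF-labelled 2_1 and 2_2 lay below the controls. Its log2 fold change was -0.38 (SE 0.21, edgeR adjusted p = 0.828), with -0.68 in set 1 and -0.14 in set 2, and it was -0.24 without LOF-labelled 2_1. How reads shared by the 2 rrm2 genes were assigned is not stated, so the split between them is uncertain. tyms, which makes thymidylate, overlapped between the groups, with a log2 fold change of -0.022 (95% interval -0.32 to 0.28).

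The replication genes separated the library sets instead. Of the 19, 16 were higher in set 1, with a median difference of 0.18 (log2 CPM) between set 1 and set 2, beside -0.017 over all genes. In 9 of the 19, all 4 libraries of set 1 lay above all 4 of set 2, which held for 14.2% of all genes. These were mcm2, mcm3, mcm4, mcm6, mcm7, pcna, rrm1, the rrm2 gene on chromosome 19 and tyms. None of the 19 had the opposite order, which held for 13.1% of all genes. The MCM subunits differed between the sets by 0.13 to 0.43. Of the 21 mitosis genes, 12 were higher in set 1, with a median difference of 0.041. All of set 1 lay above all of set 2 for bub1 and mki67, and below it for ccnb2. The sets were read from the principal component of the same libraries, so these counts describe the axis and are not a test.

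Markers of other cells moved with the same axis. Erythroid markers, of which 7 of 11 genes could be tested, summed to 1060 to 1501 CPM in set 1 and to 392 to 444 CPM in set 2. Blood stem and progenitor markers, 9 of 10 tested, summed to 625 to 720.4 CPM in set 1 and to 446 to 566 CPM in set 2. Neutrophil and macrophage markers summed to 1808 to 2217 CPM and to 1120.1 to 1385.5 CPM. Endothelial identity genes went the other way, at 899 to 934 CPM in set 1 and 1148 to 1249 CPM in set 2, and 20 dissociation and immediate early genes summed to 25206 to 28041 CPM and to 16612 to 19020.0 CPM. The adult globin rows hbba1 and the haem enzyme alas2 were at 0 in every library. The part of these cells in the set difference of the replication genes was not tested.

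**Figure D2:**
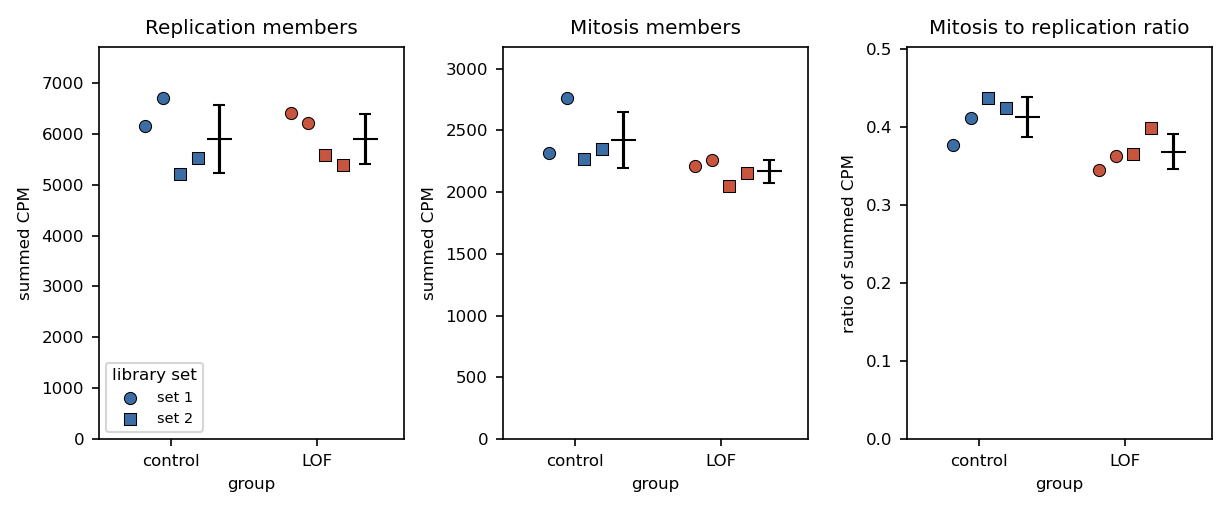
Summed CPM of the replication members (left), of the mitosis members (middle) and the ratio of the sums (right) in each library, by group on the horizontal axis. Circles are set 1 and squares set 2, and the black bar and whiskers are the mean and SD of 4 libraries. Replication sums separate by set, whereas all 4 LOF-labelled mitosis sums, at 2047 to 2260.3 CPM, lie just under the lowest control at 2272 CPM.

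Mitosis genes leaned lower in the LOF-labelled samples, by small amounts. Of the 21 tested, 17 had a log2 fold change below 0, or 81.0% beside 49.7% of all genes, and 4 had one above 0. The median was -0.15, a fold of 0.902, beside 0.0017 over all genes. No member passed the edgeR test, and the smallest adjusted p was 0.692. These genes share cells and libraries and are not independent of each other.

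A pair of genes of the class carried almost no counts and were not tested. plk1, the Polo-like kinase of mitosis, had 3 counts in all, 1 in control 2_2 and 2 in LOF-labelled 1_1. espl1, the separase that cuts cohesin at anaphase, had 0 counts in every library. A count of 0 allows up to 3 counts, which is 0.264 to 0.594 CPM depending on the library. This limits the counts assigned to these 2 rows and not the transcripts in the cells, and how completely the rows capture them was not tested. The 21 tested mitosis genes had means of 2.51 to 554 CPM. Both are annotated with an antisense gene on the other strand, and these antisense rows also held 0 counts.

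Among the mitotic cyclins and their kinase, ccnb1, cyclin B1, is the partner of CDK1 that triggers entry into mitosis. ccnb1 lies on the reverse strand of chromosome 5, 54711027 to 54714789. It was at 79.6, 84.0, 88.7 and 91.6 CPM in controls and at 74.6, 76.1, 72.8 and 72.1 CPM in the LOF-labelled samples. All 4 LOF-labelled samples lay below all 4 controls, which held for 1 of 21 mitosis members and for 2.62% of all genes. The means were 86.0 ± 5.25 and 73.9 ± 1.81 CPM (SD, n = 4), with a log2 fold change of -0.22 (SE 0.084, edgeR adjusted p = 0.692). Inside the sets the difference was -0.18 and -0.26.

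The other members of this role did not share that pattern. Cyclin A2 (ccna2), which acts in S phase and G2, stood at 168 ± 20.3 and 147 ± 11.6 CPM, with a log2 fold change of -0.19 and overlapping groups. ccnb2, ccnb3 and cdk1 were low, at 11.8 to 15.7 CPM in controls, and had log2 fold changes of 0.081, 0.11 and 0.080. Their SEs of 0.17 to 0.33 were larger than these values. ccnb3 was at 28.8 CPM in LOF-labelled 1_2 and at 11 to 12 CPM in the other 3 LOF-labelled samples. cdk1 was lower in the LOF-labelled samples of set 1 (-0.27) and higher in those of set 2 (0.42).

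Among the mitotic kinases and the chromosomal passenger complex, aurkb encodes Aurora B, the kinase of that complex, which corrects faulty attachments of chromosomes to the spindle. It was at 126, 136, 120.3 and 110.1 CPM in controls and at 112, 96.9, 109 and 107 CPM in the LOF-labelled samples. Only LOF-labelled 1_1 reached into the control range, just above control 2_2. This gave a log2 fold change of -0.21 (SE 0.094, edgeR adjusted p = 0.788), with -0.27 in set 1 and -0.14 in set 2. All 6 tested genes of this role had values below 0, from -0.21 to -0.069. They include aurka, the Aurora kinase of spindle poles, at -0.15, the checkpoint kinases bub1 and ttk at -0.12 and -0.085, and the Aurora B partners cdca8 (borealin) and birc5a (survivin) at -0.13 and -0.069. In every one of them the groups overlapped.

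The spindle and chromosome structure genes were also all below 0, 7 of 7, with a median of -0.19. tpx2 activates Aurora A and nucleates spindle microtubules. It was at 163, 199, 164 and 180.3 CPM in controls and at 170.3, 149.6, 144 and 145 CPM in the LOF-labelled samples. LOF-labelled 1_1 lay within the control range and the other 3 lay below it. The log2 fold change was -0.21 (SE 0.099, edgeR adjusted p = 0.803).

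cenpf encodes a large protein of the outer kinetochore that builds up in G2. It was at 128, 150.01, 127 and 140.3 CPM in controls and at 105, 116, 119 and 133 CPM in the LOF-labelled samples. LOF-labelled 2_2 overlapped the controls and the other 3 lay below them, with a log2 fold change of -0.21 (SE 0.0996, edgeR adjusted p = 0.812). nusap1, which bundles spindle microtubules, was at 113, 154, 121 and 129 CPM in controls and at 121, 118, 111 and 122 CPM in the LOF-labelled samples. The groups overlapped, with controls 1_2 and 2_2 above every LOF-labelled sample. The log2 fold change was -0.13 (SE 0.11, edgeR adjusted p = 0.907), and without control 1_2 it was -0.034. nusap1 overlaps ndufaf1 on the opposite strand.

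mki67 encodes the Ki-67 protein that coats mitotic chromosomes and serves as the usual marker of cycling cells. It had the highest level per length of the class, 67.6 CPM per kilobase, and made up 21.2 to 26.8% of the summed CPM of the class. It was at 570.3, 713, 521 and 543 CPM in controls and at 434, 477, 566 and 606 CPM in the LOF-labelled samples. The groups overlapped when taken over both sets. Inside the sets, LOF-labelled 1_1 and 1_2 lay below controls 2_1 and 2_2, and in set 1 LOF-labelled 2_1 lay below both controls while 2_2 lay between them. For mki67 the log2 fold change was -0.17 (SE 0.14, edgeR adjusted p = 0.901), and it was -0.065 without control 1_2 and -0.094 without LOF-labelled 1_1.

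The remaining genes of this role were the spindle motor kif11 at -0.19, the decatenating topoisomerase top2a at -0.064 and the motor kif23 of the cytokinetic midzone at -0.73. kif23 had the lowest log2 fold change of all members and one of the widest errors, an SE of 0.35. It was at 26.9, 31.7, 14.2 and 29.4 CPM in controls and at 6.57, 15.4, 23.1 and 16.4 CPM in the LOF-labelled samples (edgeR adjusted p = 0.812). It was chosen for these values after they were seen. The groups overlapped through control 2_1.

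Of the anaphase genes, cdc20 activates the anaphase-promoting complex. It was at 81.9, 87.0, 77.5 and 80.2 CPM in controls and at 78.1, 65.7, 72.8 and 69.2 CPM in the LOF-labelled samples. LOF-labelled 1_1 lay just inside the control range, and the log2 fold change was -0.19 (SE 0.090, edgeR adjusted p = 0.803). ube2c, the ubiquitin-conjugating enzyme of that complex, is named by 2 rows on chromosome 6. The row at 55287823 to 55297274 was at 56.8, 59.9, 73.9 and 60.7 CPM in controls and at 62.6, 58.6, 50.2 and 51.3 CPM in the LOF-labelled samples. The groups overlapped, with a log2 fold change of -0.17 (SE 0.12, edgeR adjusted p = 0.877), or -0.088 without control 2_1. The second row, close by, was at 2.50 ± 0.909 and 2.53 ± 0.750 CPM, and reads shared by the rows may have been split between them.

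**Figure D3:**
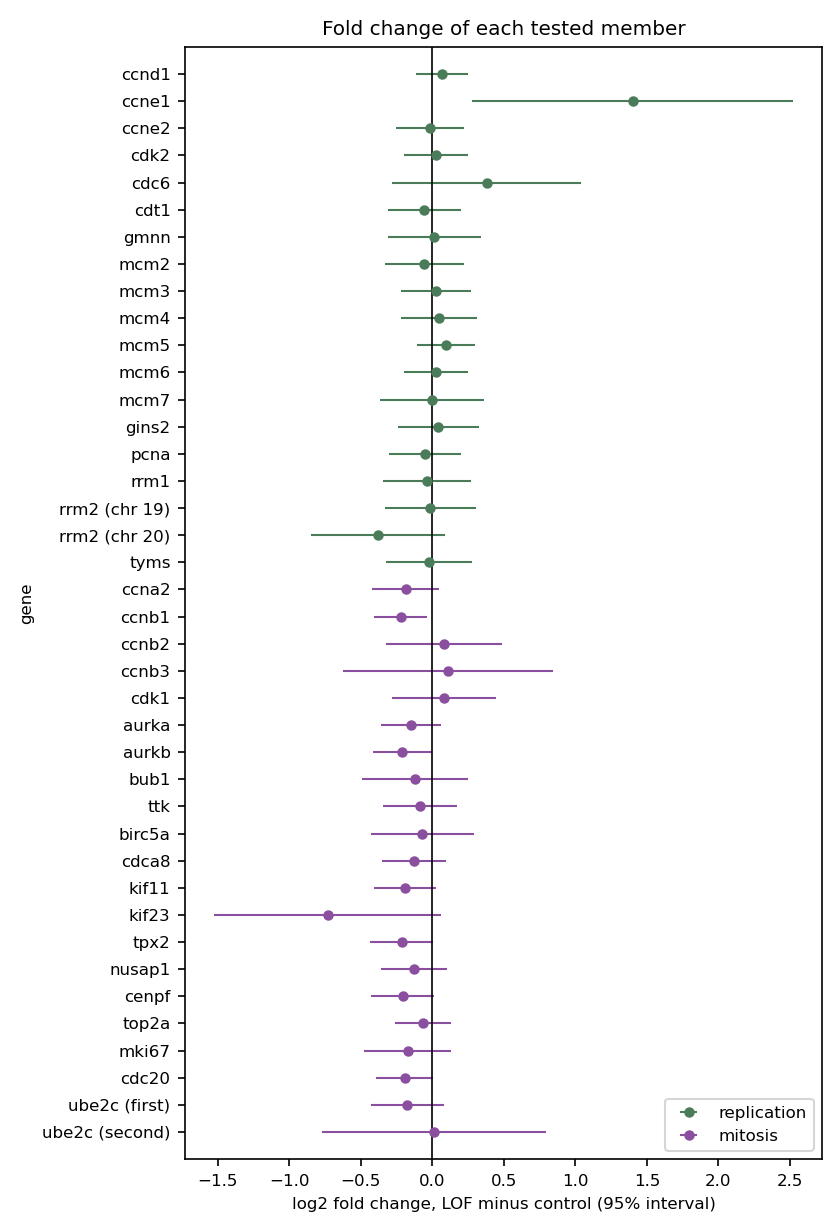
Log2 fold change of each tested member, LOF-labelled minus control (horizontal axis), with the 95% interval of the edgeR fit as whiskers; replication genes are green and mitosis genes purple. Replication genes scatter around 0, and 17 of the 21 mitosis genes lie left of 0. The intervals of 3 members, ccne1, ccnb1 and aurkb, leave out 0 before adjustment over all genes. The fit treats libraries of a biological replicate as independent, so the intervals may be too narrow. With biological replicate as a random effect, no member reached an unadjusted limma p under 0.05.

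Within the library sets, the mitosis genes leaned the same way in each. Each set sets a single biological replicate of the LOF-labelled group against a single control replicate, and genes are not independent replicates of that contrast. The median difference was -0.19 in set 1 and -0.13 in set 2, with 18 of 21 genes below 0 in each and 16 below 0 in both. For the replication genes the medians were -0.020 and 0.041, with 2 of 19 below 0 in both sets and 6 above 0 in both. Over all 15559 genes tested the medians were 0.0058 and -0.0063, with 4502 below 0 in both sets and 4471 above 0 in both. All 16 mitosis genes at a mean of 20 CPM or more, a limit chosen after the values were seen, were below 0. Of the 5 rarer ones, 4 were above 0.

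**Figure D4:**
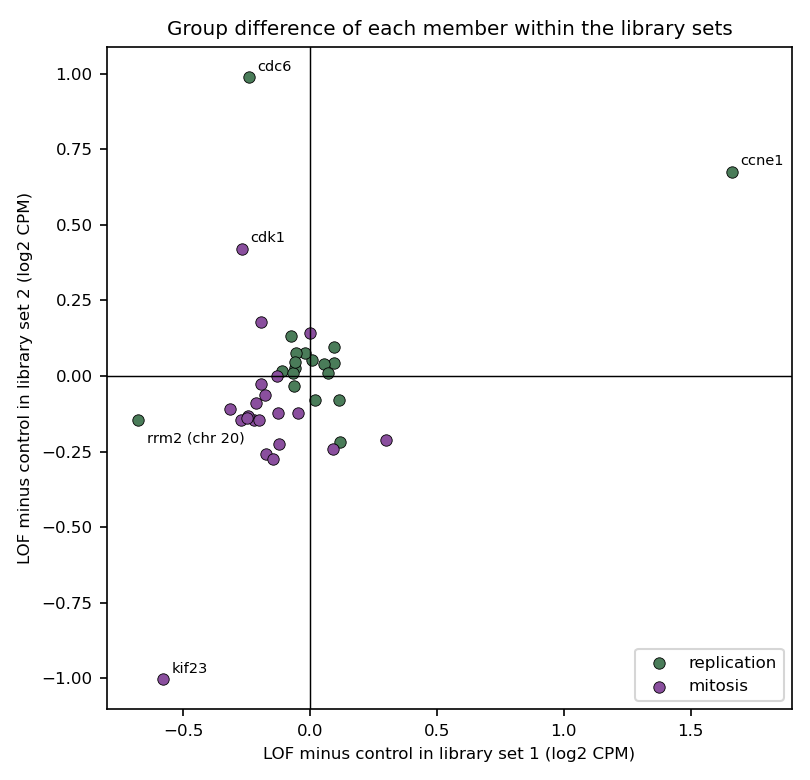
Each point is a tested member, with its LOF-labelled minus control difference in mean log2 CPM in set 1 (horizontal) and in set 2 (vertical). Most mitosis genes (purple) sit in the lower left quadrant and most replication genes (green) cluster around the origin. The named points, ccne1, cdc6, cdk1, kif23 and the rrm2 gene on chromosome 20, lie farthest out, and cdc6 and cdk1 have opposite signs in the sets.

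Summed over the class, the mitosis genes gave 2316, 2762, 2272 and 2349 CPM in controls and 2047, 2155, 2209 and 2260.3 CPM in the LOF-labelled samples. The means were 2424 ± 227 and 2168 ± 91.6 CPM (SD, n = 4). All LOF-labelled sums lay below all control sums, although the gap between the nearest libraries was under 1 SD of either group, and control 1_2 stood far above the other controls. The mean log2 CPM over the tested mitosis genes, in which each gene weighs the same, did overlap between the groups. It was 5.864 to 6.125 in controls and 5.721 to 5.895 in the LOF-labelled samples. The replication sums were 5895 ± 666 and 5904 ± 488 CPM. The ratio of the mitosis sum to the replication sum does not depend on how libraries are scaled. It was 0.377, 0.412, 0.437 and 0.425 in controls and 0.366, 0.399, 0.345 and 0.363 in the LOF-labelled samples. Over all 8 libraries the ratios overlapped. In set 1 the controls were at 0.377 and 0.412 and the LOF-labelled samples at 0.345 and 0.363, and in set 2 the values were 0.437 and 0.425 against 0.366 and 0.399.

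The size of the mitosis difference rested in good part on control 1_2, the shallowest library. Without it the median of the mitosis genes was -0.065, still below 0. Without any other single library it lay between -0.18 and -0.14. The replication median changed sign with the library left out, from -0.041 without control 2_1 to 0.071 without control 1_2.

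Wider lists of the same pathways gave like medians. Of 60 other mitosis genes, 53 were tested. None was called by edgeR, and 42 had values below 0 (79.2%, beside 49.7% of all genes) with a median of -0.13. An unadjusted edgeR p under 0.05 was reached by 3 of the 53, all lower, beside 6.29% of all genes. dlgap5, a spindle protein that steadies kinetochore fibres, stood at 52.7 ± 7.60 CPM in controls and 43.5 ± 2.21 CPM in the LOF-labelled samples, with no overlap, as for 2 of the 53 genes and 2.62% of all genes (log2 fold change -0.28, SE 0.11, edgeR adjusted p = 0.749). The checkpoint kinase gene bub1bb stood at 34.1 ± 3.72 and 27.7 ± 3.14 CPM (-0.29, SE 0.12, edgeR adjusted p = 0.755). The list was drawn up knowing that cell cycle genes were lower in these data.

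Of 48 other replication genes, all were tested and none was called. They divided evenly, 24 above and 24 below 0, with a median of 0.0038 and no unadjusted p under 0.05. In 15 of the 48 all libraries of set 1 lay above all of set 2, beside 14.2% of all genes. The clamp loader subunit rfc3 had the lowest p and a log2 fold change of -1.47 (SE 0.69, edgeR adjusted p = 0.810), at 1.47 to 16.5 CPM in controls and 1.77 to 3.45 CPM in the LOF-labelled samples. The catalytic subunit of polymerase epsilon, pole, was at 28.6 ± 4.82 and 33.9 ± 2.32 CPM (0.24, SE 0.13, edgeR adjusted p = 0.821).

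The sum of the other mitosis genes over the sum of the other replication genes was 1.69, 1.73, 1.72 and 1.75 in the controls. It was 1.61, 1.6, 1.58 and 1.55 in the LOF-labelled samples. The groups did not overlap, and the gap between them, from 1.61 to 1.69, exceeded the SD of 0.025 and 0.026 inside the groups. Libraries of the same biological replicate are not independent, so these SDs may understate the spread, and the gap was not tested. This ratio shares no gene with the members, but it comes from the same 8 libraries. Its lists were also drawn up with earlier results of these data known, so it is not independent support.

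None of the cell cycle regulators outside these lists was called in the comparison without a block. Among CDK inhibitors, 8 of 10 tested with a median of 0.024, cdkn1a (p21, a p53 target that blocks CDK2) stood at 155 ± 17.5 CPM in controls and 214 ± 7.30 CPM in the LOF-labelled samples. All 4 LOF-labelled samples, at 206 to 222 CPM, exceeded all 4 controls, at 131 to 173 CPM, an order found in 1 of the 8 and in 2.03% of all genes. The log2 fold change was 0.47 (SE 0.099, edgeR adjusted p = 0.196), and with the library sets as a block it was 0.47 with an edgeR adjusted p of 5.69e-04. That block was read from these same libraries, and inside a set each group is a single biological replicate. This second p thus rests largely on the spread between libraries of the same replicate. The fit with the block called 396 of 15559 genes, against 14 without it and 0 with counts summed per biological replicate. cdkn1d had the next smallest p, at 126 ± 23.3 and 149 ± 4.05 CPM (0.25, edgeR adjusted p = 0.813).

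Of 22 E2F, RB, DREAM and FOXM1 regulators, which turn the transcription of both classes on and off, 19 were tested and the median was 0.0013. tfdp2, a partner of E2F factors, stood at 68.3 ± 2.28 and 76.8 ± 4.14 CPM (0.17, edgeR adjusted p = 0.812). rbl1, the pocket protein p107 that represses E2F targets, stood at 121 ± 6.09 and 133 ± 1.04 CPM (0.14, edgeR adjusted p = 0.824). In these genes, named for their small p, the LOF-labelled samples lay above the controls with no overlap, which held for 2 of the 19 and for 2.03% of all genes. Of 12 other G1 cyclins and kinases, 9 were tested with a median of 0.091. The cyclin D kinase cdk6 stood at 12.9 ± 0.834 and 16.7 ± 2.25 CPM (0.37, edgeR adjusted p = 0.697), and the cyclin ccnd2b at 25.4 ± 4.14 and 31.0 ± 2.75 CPM (0.29, edgeR adjusted p = 0.805).

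Cell type markers were also compared between the groups, and only the 16 neural crest and cartilage genes held any that were called. Of these, 14 were tested and 13 had values below 0, beside 49.7% of all genes. In edgeR 3 were called lower, beside 0.09% of all genes called in either direction. Their sum was 24662 to 30527 CPM in controls and 15865 to 21282 CPM in the LOF-labelled samples, with snorc at 0 throughout. Neuronal markers summed to 354 to 463 CPM in controls and 334 to 356 CPM in the LOF-labelled samples. Photoreceptor and lens genes, 9 of 14 tested, summed to 88.6 to 807 and 118 to 248 CPM, with cryaa and lim2.1 at 0. The photoreceptor and lens sums divided by set, at 245 to 807 CPM in set 1 and 88.6 to 129 CPM in set 2. In these sums the LOF-labelled samples were lower than the controls in set 1 and higher in set 2. Gene by gene, all 9 tested had log2 fold changes below 0, beside 49.7% of all genes, and none was called. Their median difference was -2.06 in set 1 and -0.072 in set 2. Blood stem and progenitor markers ran from 555 to 720.4 CPM in controls and from 446 to 648 CPM in the LOF-labelled samples, and neural progenitor markers from 301 to 372 and from 353 to 419 CPM. Fibroblast genes summed to 33934 to 39965 CPM and 38846 to 47518 CPM, and epidermal genes to 181 to 202 and 185 to 204 CPM, with krt5, cldni and epcam at 0. Apart from the neural crest and cartilage sums, the sums of all these lists overlapped between the groups. The part of these cells in the mitosis difference was not tested.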

How the data were processed

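The authors deposited unnormalised counts of reads for 32520 genes, with gene names and coordinates. The submitters' processing notes name the build GRCz11. Not given in the sources used here are the aligner, the counting tool and whether strand was used. Per the labels' protocols, larvae were dissociated with trypsin, GFP-positive cells were sorted without propidium iodide-positive cells, and an ultra low input library preparation for mRNA was used. Columns were matched to samples by description, with 0 sample columns unmatched.

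Genes were kept with filterByExpr at a minimum count of 10, leaving 15559, and compared with edgeR 4.0.16 (quasi-likelihood, robust, TMM scaling, no block) in R 4.3.3, adjusted over all genes tested. CPM values are counts per 1000000 of the TMM-scaled total, and log2 CPM carries a prior count of 2. SEs derive from the F statistic. List sums use the same CPM. The edgeR steps were tested on simulated data. These were drawn without library sets and without correlation within biological replicates, so that check does not cover either feature. Counts differed between the 2 libraries of a biological replicate beyond sampling noise (chi-square per gene 2.47 to 5.45), and between biological replicates more so (12.6 to 22.1). Detection limits cover counting error only.

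The members, the 18 gene lists (344 entries, 337 matched), the tests and the alternatives were chosen with earlier results of these data known. Values in every library are given for the 5 members of smallest p and the 3 of highest level per length in each class. Of each other pathway list, the 2 genes of smallest p are named, with group means or ranges. Any other gene with a value was named after its value was seen. Same-numbered libraries of the groups did not deviate together, so numbers were not treated as pairs. Alternatives were DESeq2 1.42.0, limma 3.58.1 with biological replicate as a random effect, other scaling, filters, blocks, sums per biological replicate and each library left out.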

Additional observations from a re-analysis of the deposited data

Results flagged for a closer look

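Values in each group of 4 libraries were examined for a single library far from the rest, in 116 such groups. Chance alone flags about 1 in 20 if libraries are independent, and those of a biological replicate are not. The 3 values flagged do not exceed that rate. Cyclin D1 (ccnd1) was at 430.6 CPM in LOF-labelled 1_2, against 409.2 to 412.8 CPM in the other LOF-labelled libraries. Cyclin B3 (ccnb3) was at 28.8 CPM in the same library, against 11 to 12 CPM in the other 3. The summed CPM of the mitosis members was 2761.7 in control 1_2, against 2271.7 to 2348.9 in the other controls. The cause was not tested for any of them.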

How the results depend on the processing

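No member of either class was called under any alternative run. With 1 library left out, the median log2 fold change of the mitosis genes ran from -0.18 to -0.065 and that of the replication genes from -0.041 to 0.071. The number of genes called over the whole table moved much more: 93 with DESeq2 (21 higher, 72 lower), 32 with no low-count filter, 9 with a stricter filter, 396 with the library set block (175 higher, 221 lower), 0 with counts summed per biological replicate (299 at an unadjusted p under 0.05), 5 with biological replicate as a random effect, and 0 to 20 with 1 library left out. The replicate block on the full number gave 0 calls (524 at an unadjusted p under 0.05) and that on the biological replicate number 17. Numbers did not pair the libraries: the correlation of same-numbered deviations was -0.34 to -0.23. Under the library set block, an unadjusted edgeR p under 0.05 was reached by 8 of 21 mitosis and 2 of 19 replication members. The share of all genes in that fit was 15.9%. The smallest edgeR adjusted p-values of the mitosis and replication members were 0.141 and 0.103. These p-values rest largely on the spread between libraries of the same biological replicate. With biological replicate as a random effect, the counts were 0 and 0, beside 340 of 15559 genes by limma. With summed counts they were 1 and 0, beside 299 of 17445 genes by edgeR. mcm7, at -0.0050, took the other sign with library totals (0.022), no filter (0.0026), the replicate block on the biological (0.0051) or full number (0.011), the library set block (0.0053), summed counts (0.010) and the random effect (0.012). With 1 library left out, mcm7 ran from -0.11 to 0.15 and pcna from -0.11 to 0.012, and mcm5 was 0.060 without control 2_1. The cause was not tested. Over all these alternatives the median of all genes lay between -0.0036 and 0.018.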
